A study of Mus musculus with 29 samples.

Results

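The DNA replication genes described here are a list of 39 mouse genes that license origins, start and extend the fork, and supply its nucleotides. Probe sets of the expression array annotated to exactly 1 of these symbols were used, and 38 of the 39 genes had one. The exception, Chaf1a, had no such probe set here. The 38 genes were read among 12394 genes, each by the brightest of its probe sets in that tissue.

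The series measured total RNA of bone marrow and spleen from mice carrying MLL-ENL-ERtm, a leukemia fusion protein made active by tamoxifen through a mutated estrogen receptor domain. All mice, wild types included, received tamoxifen at 300 mg/kg chow, so the drug itself was shared by every group. Times are months on tamoxifen. The fusion marrow groups were labelled proliferation (high proliferation, low DNA damage response; 7 months, 4 arrays), transition (lower proliferation, high damage response; 7 to 8 months, 4 arrays) and senescence (8 months, 3 arrays), and 4 wild-type marrows had 8, 7, 7 and 7 months. The fusion spleen groups were labelled early (7 months, 3 arrays), progression with partial senescence (9 to 10 months, 3 arrays) and terminal, with proliferation and little or no damage response (19 to 23 months, 3 arrays), and 5 wild-type spleens had 24, 8, 9, 11 and 11 months. The age of the mice was not used here. The promoter that drives the fusion is not given in the sources used here, and neither tissue was sorted, so every value is an average over a mixture of cells. In such bulk samples fewer cells of a type and less RNA per cell cannot be told apart.

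DNA replication begins when the origin recognition complex, with Cdc6 and Cdt1, loads the Mcm2 to Mcm7 helicase ring onto origins in the G1 phase. At the start of S phase Cdc45 and the GINS complex join the ring and activate it, primase and the polymerases alpha, delta and epsilon copy the strands, and the clamp Pcna, placed by the Rfc clamp loader, holds the polymerases on DNA. Many of these genes are transcribed in late G1 under E2F factors, so in blood-forming tissue their RNA is widely read as a sign of cycling cells.

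To show what the members carry upstream, the 250 bases before the annotated start were read from RefSeq on build GRCm38.p6 for the 34 of 39 listed genes with an entry. A strict E2F match (TTTCGCGC or TTTGGCGC, on either strand) was in 5 of their 40 windows, or 12.5%, against 0.654% of 32851 windows of all genes of the same length. A CCAAT box (either strand) was in 22 of the 40 windows, or 55%, against 33.8% of all windows and 84.6% of the 13 windows of mitosis genes. The CHR letters TTTGAA (either strand) were in 10% of the member windows, 16% of all windows and 46.2% of those of mitosis genes. The 5 genes with the E2F match were Mcm5, Mcm6, Orc1, Rfc3 and Pola1, and their spleen results differed: Mcm5, Mcm6 and Rfc3 were called higher at 1 stage or more, Orc1 was called lower at the terminal stage, and Pola1 passed at none. The 4 sequences below were chosen with these results known. Mcm5 and Mcm6 show E2F matches, and Cdc45, called higher at every spleen stage, and Rrm2, called lower at the last, have no strict E2F match. They lie at chr8:75109259-75109508 (plus strand), chr1:128359706-128359955 (minus strand), chr16:18811973-18812222 (minus strand) and chr12:24708004-24708253 (plus strand). Capitals mark the E2F and CCAAT letters, and overlapping E2F matches on opposite strands run together as 1 stretch in Mcm5 and Mcm6.
Mcm5: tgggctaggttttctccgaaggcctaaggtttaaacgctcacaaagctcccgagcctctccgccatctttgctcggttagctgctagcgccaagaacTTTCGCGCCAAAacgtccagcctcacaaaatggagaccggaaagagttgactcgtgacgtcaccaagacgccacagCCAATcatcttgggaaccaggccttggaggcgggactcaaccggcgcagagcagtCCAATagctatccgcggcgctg
Mcm6: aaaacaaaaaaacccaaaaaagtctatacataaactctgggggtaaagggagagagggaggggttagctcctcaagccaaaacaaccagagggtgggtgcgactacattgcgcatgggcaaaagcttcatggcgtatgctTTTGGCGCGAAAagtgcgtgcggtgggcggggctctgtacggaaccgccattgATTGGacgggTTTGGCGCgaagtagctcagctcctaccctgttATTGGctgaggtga
Cdc45: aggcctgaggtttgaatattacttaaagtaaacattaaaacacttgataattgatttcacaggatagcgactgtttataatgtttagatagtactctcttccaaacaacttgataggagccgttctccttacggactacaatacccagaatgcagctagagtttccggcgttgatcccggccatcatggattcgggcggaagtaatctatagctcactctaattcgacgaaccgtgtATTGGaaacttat
Rrm2: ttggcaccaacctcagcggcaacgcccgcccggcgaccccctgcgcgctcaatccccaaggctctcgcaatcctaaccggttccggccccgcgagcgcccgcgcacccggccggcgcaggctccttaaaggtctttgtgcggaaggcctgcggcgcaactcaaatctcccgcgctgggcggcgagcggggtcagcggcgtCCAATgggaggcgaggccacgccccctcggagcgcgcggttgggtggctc
A match is a description of these letters and shows no binding.

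The deposited log2 values had array medians of 8.11 to 8.29 for marrow but 6.73 to 6.90 for spleen, so levels were not compared between tissues. Several arrays carried marks of other cells or differed in a way the group did not set. Proliferation marrow 1 had a mean of 10.7 over 8 adipocyte and muscle genes, against 7.31 to 8.11 on the other marrow arrays, and transition marrow 4 had a mean of 10.5 over 8 erythroid genes, against 11.95 to 14.005. Pancreas acinar genes averaged 12.4 on wild-type spleen 3, 8.49 on early spleen 1 and 7.76 on wild-type spleen 5, against 5.33 to 5.74 elsewhere in spleen. Xist, the RNA of the inactive X chromosome, was low (5.39 to 5.72) on all 3 progression spleens and high (11.6 to 12.2) on all 3 terminal spleens, so these stages also differ in it, and the part of this in any result cannot be told apart from stage. Their months of treatment differ as well.

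In bone marrow no replication gene passed the test in any fusion state, and the members sat slightly below wild type. The test was limma's moderated test on log2 values, with Benjamini-Hochberg adjustment over 12394 genes at 0.05. Against wild type, 0 of 38 members were called in proliferation, 0 in transition and 0 in senescence, where 0.282%, 0.42% and 0.0484% of all genes were called in either direction. At an unadjusted p under 0.05 the count was also 0 of 38 in each state, where 9.9%, 10.5% and 6.36% of all genes passed. The median member difference was -0.32 in proliferation, -0.19 in transition and -0.30 in senescence, against all-gene medians of 0.01, 0.04 and 0.00. The readings were below the wild-type mean for 36, 30 and 38 of 38 members and for 48.2%, 42.3% and 49.5% of all genes, and the 3 comparisons share their wild-type arrays.

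**Figure D1:**
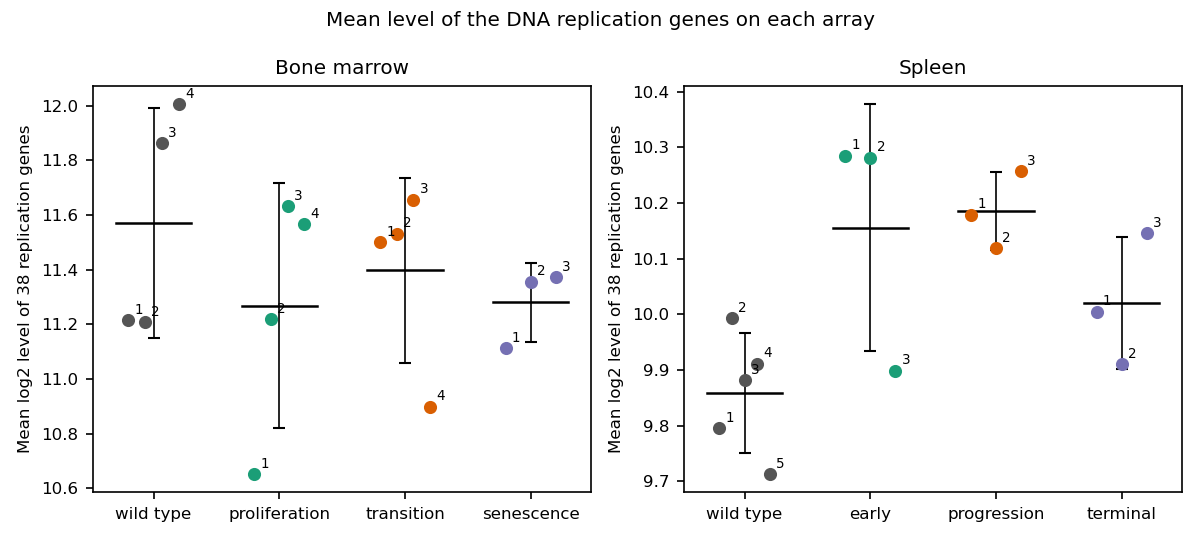
Mean log2 level of the 38 replication genes on each array (points, numbered by replicate), with the group mean (bar) and SD (error bar), in bone marrow and in spleen. Fusion marrow arrays spread from 10.65 to 11.66 against 11.21 to 12.005 on the wild types, and in spleen 7 of the 9 fusion arrays lay above the highest wild type, 9.99.

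The size of these lower medians depended on single arrays. The member mean was 11.22, 11.21, 11.86 and 12.005 on the 4 wild-type arrays, 10.65, 11.22, 11.63 and 11.57 in proliferation, 11.50, 11.53, 11.66 and 10.90 in transition, and 11.11, 11.36 and 11.37 in senescence. Wild types 3 and 4 stood above the other arrays, and wild type 4 was the highest of 15 arrays for 26 of 38 members. Proliferation 1, the array with adipocyte and muscle signal, was the lowest for 27. Without it the proliferation median was -0.10, and without wild type 4 it was -0.18. In transition the median was -0.03 without transition 4 and -0.01 without wild type 4, and in senescence it was -0.19 without wild type 4. Xist was low on wild types 1 and 2 (7.21 and 7.60) and high on wild types 3 and 4 (13.0 and 13.1), beside this split of the member mean. It was high on every proliferation and transition array (12.6 to 13.3) and on senescence 1 (12.9). On senescence 2 and 3 it was low (7.61 and 7.02). The fits without wild type 4 therefore keep wild type 3 as the only wild type with high Xist. With the Xist level as a covariate the medians were -0.45, -0.34 and -0.25, and 0 of 38 members passed in each state.

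By role, the licensing genes gave values of this kind. Mcm2, a subunit of the helicase ring, read 11.65, 12.27, 12.70 and 12.50 in proliferation, 12.72, 12.57, 12.32 and 11.85 in transition, 12.01, 12.58 and 12.36 in senescence, and 12.50, 12.17, 13.10 and 13.09 in wild type. Mcm5, another subunit, read 10.99, 11.98, 12.48 and 12.26 in proliferation, 12.10, 12.38, 12.48 and 11.95 in transition, 11.29, 11.97 and 12.46 in senescence, and 12.39, 11.84, 12.59 and 12.61 in wild type. For both subunits all groups overlapped. The differences from wild type were -0.43 ± 0.26 (SE), -0.35 ± 0.26 and -0.40 ± 0.29 for Mcm2 in proliferation, transition and senescence, and -0.43 ± 0.31, -0.13 ± 0.31 and -0.45 ± 0.33 for Mcm5.

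Among the genes that activate the helicase, Mcm10 had the smallest p in proliferation. Its levels were 9.76, 9.87, 10.28 and 10.24 in proliferation, 10.46, 10.22, 10.14 and 9.62 in transition, 10.10, 10.48 and 9.97 in senescence, and 10.10, 10.31, 10.69 and 10.77 in wild type. All 4 proliferation arrays lay below 3 of the 4 wild types, and the difference was -0.43 ± 0.20 (adjusted p 0.515). Gins1, a GINS subunit, read 10.20, 10.48 and 10.56 in senescence and 10.63, 10.32, 11.39 and 11.88 in wild type, with 9.56, 10.60, 11.18 and 11.03 in proliferation and 10.94, 10.97, 10.92 and 10.24 in transition. The senescence arrays reached into the wild-type range, and the difference of -0.64 ± 0.39 there had an adjusted p of 0.861.

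Prim1, the catalytic subunit of primase, had the smallest p in senescence. It read 11.65, 11.94 and 11.88 there, 11.12, 11.89, 12.29 and 12.15 in proliferation, 12.36, 12.11, 12.36 and 11.62 in transition, and 12.06, 11.73, 12.60 and 12.86 in wild type. The senescence difference was -0.49 ± 0.30 (adjusted p 0.861). Pcna, the sliding clamp, was close in all states at 13.62, 14.16, 14.46 and 14.49 in proliferation, 14.42, 14.28, 14.56 and 13.84 in transition, 14.11, 14.35 and 14.51 in senescence, and 14.21, 13.96, 14.52 and 14.75 in wild type. Its differences were -0.18 ± 0.22, -0.09 ± 0.22 and -0.04 ± 0.24.

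Rrm2, the regulated subunit of ribonucleotide reductase, had the smallest p in transition. It read 13.86, 14.10, 13.43 and 12.99 there, 13.01, 13.99, 14.25 and 14.18 in proliferation, 13.43, 14.10 and 13.73 in senescence, and 14.01, 13.65, 14.46 and 14.54 in wild type. Transition arrays 3 and 4 lay below all wild types while the other two did not, and the difference was -0.57 ± 0.30 (adjusted p 0.541). Chaf1b, a subunit of the chromatin assembly factor that places histones behind the fork, read 9.34, 9.88, 10.29 and 10.43 in proliferation, 10.30, 10.17, 10.28 and 9.53 in transition, 10.17, 10.08 and 10.28 in senescence, and 10.20, 10.09, 10.81 and 10.97 in wild type. Its differences were -0.54 ± 0.25, -0.45 ± 0.25 and -0.35 ± 0.28. The other members ranged from -0.62 (Rfc4) to 0.05 (Prim2) in proliferation, had their highest value, 0.22, at Pola1 in transition, and ran from -0.51 (Cdc6) to -0.04 (Pcna) in senescence apart from Gins1. Fen1, the flap nuclease of lagging-strand maturation, was the 1 member below wild type with no overlap in proliferation, where 2.29% of all genes were.

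**Figure D2:**
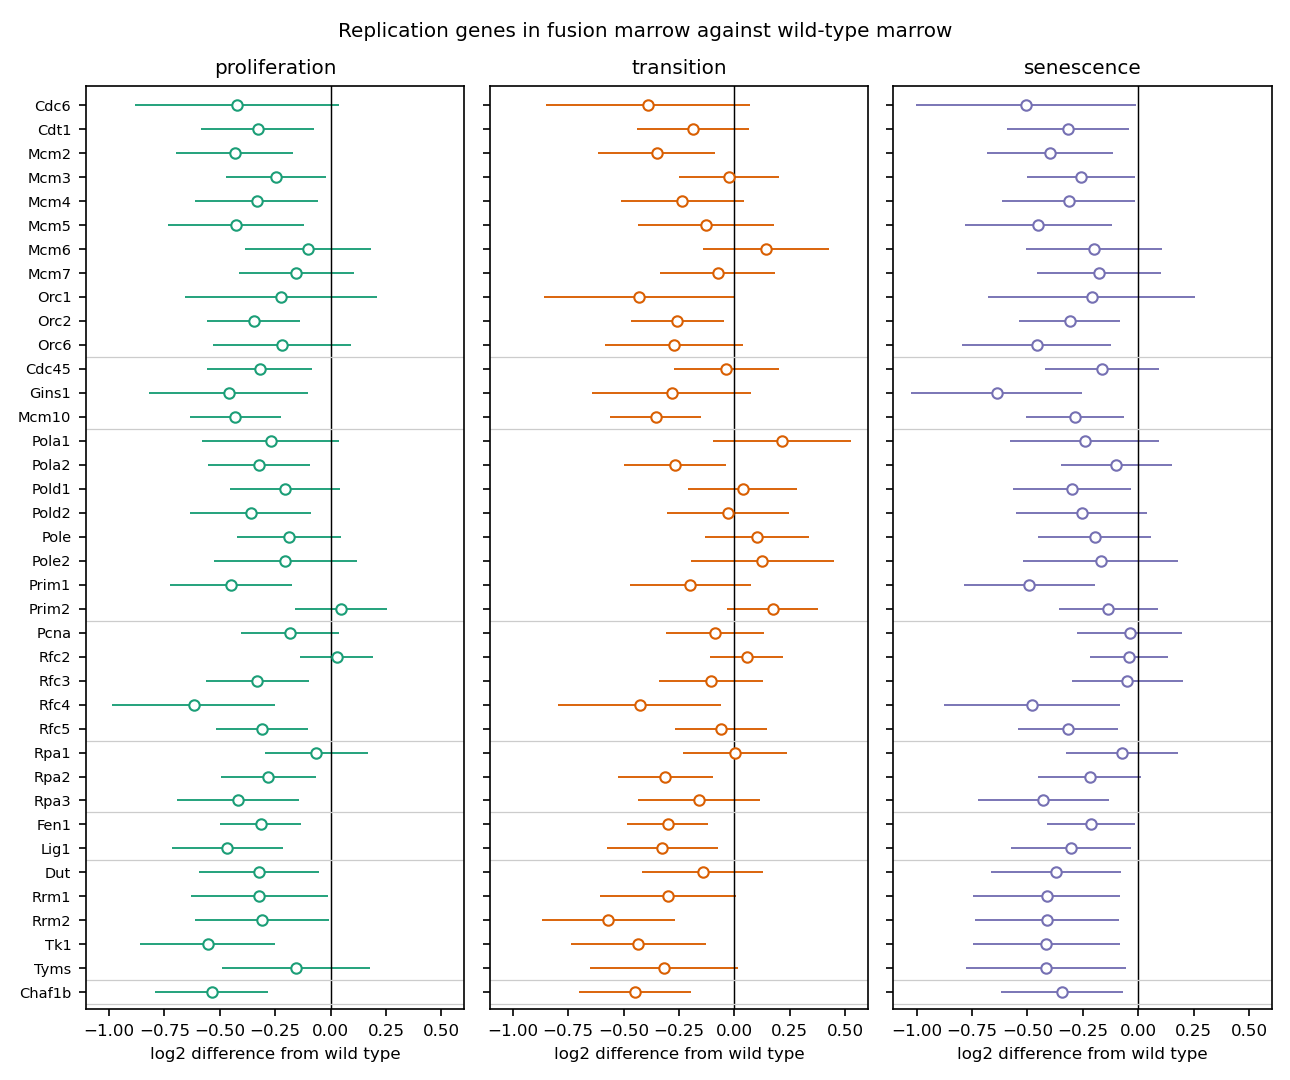
Difference from wild-type marrow (log2, point) with its SE (line) for the 38 replication genes, grouped by role between grey lines, in the 3 fusion states. Open points did not pass the adjusted p of 0.05, and all 38 points are open in each state.

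Between fusion states of the marrow the members did not pass either. In transition against proliferation 0 of 38 members were called (0% of all genes), with a median of 0.12 against 0.01 over all genes and 33 members above 0 (53.9% of all genes). Senescence against proliferation gave 0 of 38 (0%), with a median of 0.00 against -0.01, and senescence against transition gave 0 of 38 (0%), with a median of -0.11 against -0.03. At an unadjusted p under 0.05 0 of 38 members passed in each, while 2.15%, 1.01% and 3.07% of all genes did. All fusion marrow against wild type also gave 0 of 38, adjusted or not, where 0.662% and 12.5% of all genes passed. The median SE of a member was 0.26 to 0.28 in the comparisons of single marrow groups, and 0.15 in those of single spleen stages with wild type. When arrays were weighted by their own spread, Mcm10 alone was lower in proliferation against wild type (-0.54, adjusted p 0.0447). There 9.85% of all genes were called in either direction. In all fusion marrow against wild type 5 members, Mcm10, Chaf1b, Tk1, Mcm2 and Prim1, were lower (-0.68 to -0.47, adjusted p 0.0309 to 0.0450). With these weights 15.1% of all genes were called there in either direction, and 5 of 38 is not above that share. The share called lower alone is not given here.

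In spleen part of the list was higher in fusion mice than in wild type at every stage. Against wild type, 7 of 38 members were higher and 0 lower at the early stage (7.35% and 8.55% of all genes), 13 higher and 0 lower at progression (9.29% and 9.96%), and 12 higher and 3 lower at the terminal stage (18.1% and 16.3%). The median member difference was 0.26, 0.31 and 0.12, beside all-gene medians of 0.03, 0.04 and 0.04. The helicase activator Cdc45, the leading-strand polymerase subunits Pole and Pole2, the clamp loader subunit Rfc5, the helicase subunit Mcm5 and Gins1 were called higher at all 3 stages, which share their wild-type arrays. No overlap with wild type, above it, was seen for 10, 21 and 11 members, against 12.3%, 12.2% and 21.4% of all genes, and below it for 3 at the terminal stage, against 18.2%. All fusion spleen against wild type gave 18 higher and 0 lower (16% and 16.4%). Of these 18 calls, that of Prim1 was lost in 11 of the 14 fits that left out 1 array, Rpa2 in 9, Tyms in 7, Rrm1 in 6 and Rfc2 in 2 (without wild type 3 or 5), with adjusted p up to 0.111. Without the 3 arrays with pancreas signal, an alternative chosen after seeing the data, 5 of the 18 still passed: Cdc45, Gins1, Pole, Pole2 and Rfc5. In that fit 17.1% of all genes were called in either direction, and 5 of 38 members is not above that share. These 5 were all higher, and the share of all genes called higher alone is not given here. Over the stages, 17 members rose at 1 stage or more, 3 fell at the terminal stage, and 18 passed at none. Neither these totals nor the calls at all 3 stages were counted over all genes, so no excess can be read from them.

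**Figure D3:**
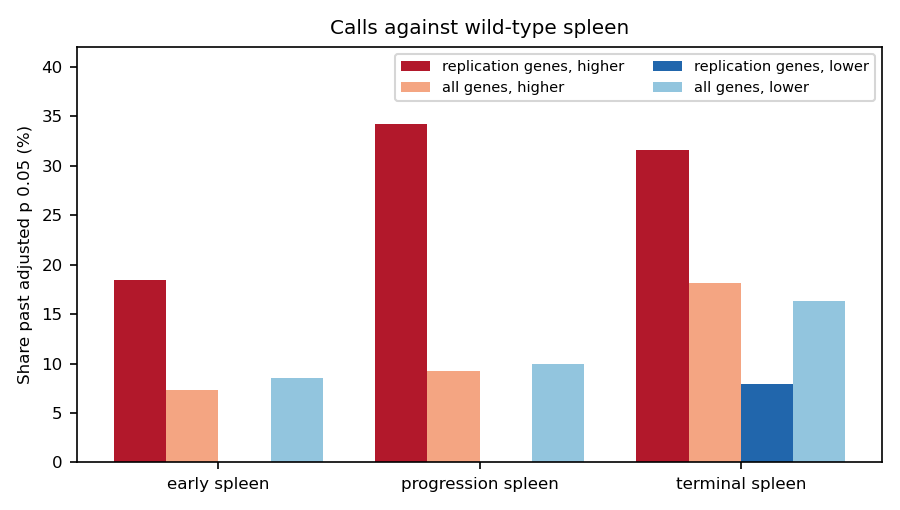
Share of genes past an adjusted p of 0.05 against wild-type spleen at each stage, for the 38 replication genes (dark bars) and for all 12394 genes (light bars), split into higher and lower. Higher calls took 18.4%, 34.2% and 31.6% of the replication genes, and lower calls took 7.89% at the terminal stage and 0 at the others.

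Marker genes of the mixture moved at the same stages. Immature granulocyte genes (5 of 5) were called higher at each stage, with array means of 11.96 to 13.40 in fusion spleens against 8.40 to 9.85 in wild type. Mature neutrophil genes were higher in 5, 6 and 6 of 7, B cell genes lower in 5, 6 and 6 of 9 (with 3 of 9 higher at progression), and T cell genes lower in 6, 6 and 7 of 7 at the early, progression and terminal stages. Erythroid genes passed in 0 of 8 at the early stage and at progression and fell in 8 of 8 at the terminal stage, where their array means were 9.95 to 10.47 against 12.1 to 12.3 in wild type. The part of these shifts in the replication results was not tested.

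Among the 3 genes that activate the helicase, all rose at the early stage and at progression, and 2 of 3 at the terminal stage, beside 7.35%, 9.29% and 18.1% of all genes. Cdc45, which joins the Mcm ring to make it active, read 8.52, 8.56 and 8.46 at the early stage, 8.80, 8.89 and 8.53 at progression, 8.65, 8.25 and 9.01 at the terminal stage, and 7.63, 7.64, 7.53, 7.61 and 7.05 in wild type. Every fusion array lay above every wild-type array. The differences were 1.02 ± 0.17 (2.03-fold, adjusted p 0.00122), 1.25 ± 0.17 (2.37-fold, 0.000249) and 1.14 ± 0.17 (2.21-fold, 0.000158). Leaving out any single array or the 3 arrays with pancreas signal ended none of these calls.

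Gins1 read 9.70, 9.53 and 9.31 at the early stage, 9.74, 9.60 and 9.51 at progression, 9.32, 9.72 and 9.79 at the terminal stage, and 9.05, 9.16, 9.03, 9.05 and 8.76 in wild type. It too had no overlap with wild type, at 0.50 ± 0.13 (adjusted p 0.0210), 0.61 ± 0.13 (0.00623) and 0.60 ± 0.13 (0.00342). Mcm10, which binds the activated helicase, read 9.15, 9.34 and 8.63 at the early stage, 9.08, 8.82 and 9.19 at progression, 8.70, 8.48 and 8.88 at the terminal stage, and 8.40, 8.48, 8.53, 8.51 and 8.14 in wild type. The terminal arrays reached down into the wild-type range while the others did not. Mcm10 rose by 0.63 ± 0.16 (0.0160) and 0.62 ± 0.16 (0.0152) and differed by 0.27 ± 0.16 (0.220) at the terminal stage.

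Of the 11 licensing genes, 1, 2 and 3 rose and 1 fell at the terminal stage, beside higher shares of 7.35%, 9.29% and 18.1% and a terminal lower share of 16.3% over all genes. Mcm5 rose at all 3 stages, Mcm6 at progression and the terminal stage, and Mcm3 at the terminal stage, while the other Mcm subunits did not pass. Mcm5 read 10.72, 10.73 and 10.10 at the early stage, 10.24, 10.28 and 10.67 at progression, 10.38, 10.35 and 10.72 at the terminal stage, and 10.02, 9.90, 9.77, 9.91 and 9.41 in wild type. All fusion arrays were above wild type, with differences of 0.72 ± 0.18 (adjusted p 0.0142), 0.59 ± 0.18 (0.0324) and 0.68 ± 0.18 (0.00860). Mcm2, in the same ring, read 11.35, 11.50 and 10.55 at the early stage, 10.92, 10.72 and 11.31 at progression, 10.63, 10.56 and 10.73 at the terminal stage, and 10.67, 11.08, 11.03, 11.01 and 10.78 in wild type. It overlapped wild type at each stage, and its differences were 0.22 ± 0.20, 0.07 ± 0.20 and -0.27 ± 0.20 (adjusted p 0.498, 0.840 and 0.321).

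Mcm6 differed by 0.37 ± 0.12 at the early stage (0.0600) and rose by 0.40 ± 0.12 (0.0397) and 0.42 ± 0.12 (0.0171). Mcm3 rose at the terminal stage by 0.55 ± 0.14 (0.00838). Other probe sets disagreed for part of these: a second Mcm6 probe set differed by -0.16, and a dim Mcm3 probe set by -0.04, at the terminal stage, while the remaining 3 Mcm3 probe sets were positive. Orc1, the largest subunit of the origin recognition complex, fell at the terminal stage by 0.70 ± 0.23 on the log2 scale (0.0316), with all 3 arrays below all wild types, and differed by 0.09 ± 0.23 and 0.11 ± 0.23 at the earlier stages. Orc2, Orc6, Cdc6, Cdt1, Mcm4 and Mcm7 passed at no stage, with differences from -0.21 to 0.42.

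**Figure D4:**
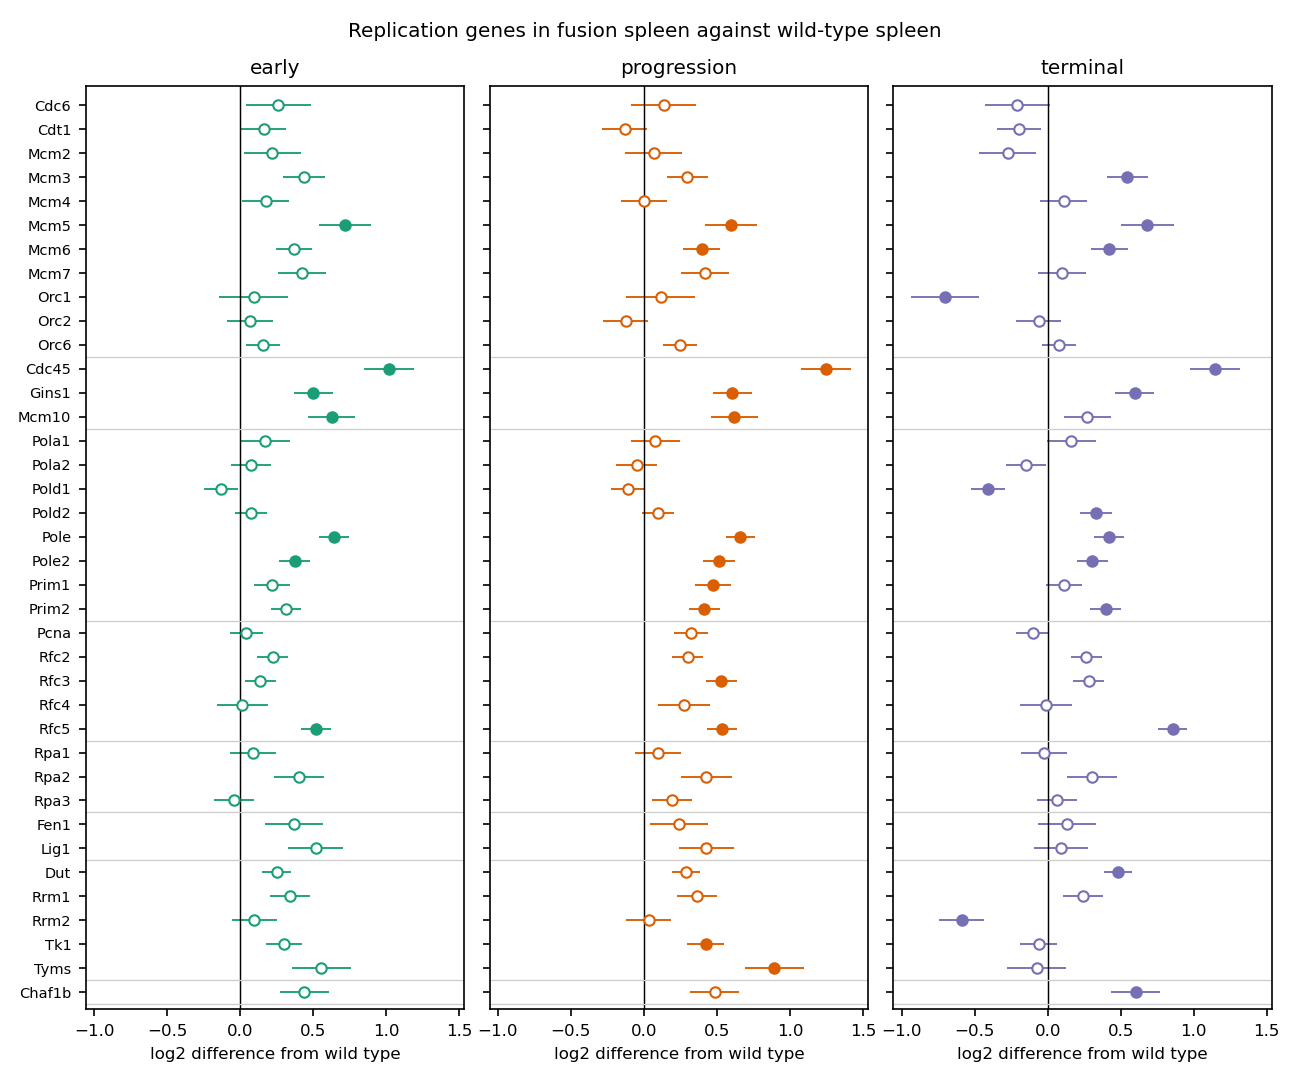
Difference from wild-type spleen (log2, point) with its SE (line) for the 38 replication genes, grouped by role between grey lines, at the 3 stages. Filled points passed the adjusted p of 0.05: 7, 13 and 12 to the right of 0, and 3 (Orc1, Pold1 and Rrm2) to the left at the terminal stage.

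Among the polymerase and primase genes, 2, 4 and 4 of 8 rose and 1 fell at the terminal stage, beside higher shares of 7.35%, 9.29% and 18.1% and a terminal lower share of 16.3% over all genes. Pole, the catalytic subunit of the leading-strand polymerase epsilon, read 8.89, 8.90 and 8.69 at the early stage, 8.80, 8.84 and 8.88 at progression, 8.48, 8.54 and 8.79 at the terminal stage, and 8.2, 8.30, 8.11, 8.21 and 8.08 in wild type. No fusion array reached the wild types, and the differences were 0.64 ± 0.10 (adjusted p 0.000727), 0.66 ± 0.10 (0.000486) and 0.42 ± 0.10 (0.00511). Pole2, its second subunit, read 9.49, 9.56 and 9.63, then 9.72, 9.74 and 9.64, then 9.45, 9.48 and 9.54 at the 3 stages, and 8.96, 9.36, 9.32, 9.26 and 9.02 in wild type. It too lay above wild type on every fusion array, by 0.37 ± 0.11 (0.0292), 0.51 ± 0.11 (0.00423) and 0.31 ± 0.11 (0.0400).

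The primase subunits Prim1 and Prim2, which lay the RNA primers, rose at progression by 0.47 ± 0.12 (0.0165) and 0.42 ± 0.10 (0.0123), and Prim2 also at the terminal stage by 0.40 ± 0.10 (0.00836). The lagging-strand polymerase delta gave opposite calls at the terminal stage. Its catalytic subunit Pold1 fell by 0.41 ± 0.12 on the log2 scale (0.0131), whereas its accessory subunit Pold2 rose by 0.33 ± 0.11 (0.0329). A second, dimmer Pold1 probe set differed by 0.05. The polymerase alpha genes Pola1 and Pola2 passed at no stage.

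In the clamp group 1, 2 and 1 of 5 genes rose, where 7.35%, 9.29% and 18.1% of all genes did, so the terminal count is near the share over all genes. Rfc5, a subunit of the clamp loader, read 9.73, 9.68 and 9.71 at the early stage, 9.78, 9.70 and 9.68 at progression, 10.17, 9.91 and 10.03 at the terminal stage, and 9.15, 9.42, 9.09, 9.19 and 9.05 in wild type. The terminal arrays were the highest, and no fusion array overlapped wild type. The differences were 0.52 ± 0.10 (adjusted p 0.00315), 0.54 ± 0.10 (0.00216) and 0.86 ± 0.10 (2.26e-05). Rfc3 read 8.26, 8.27 and 8.14, then 8.75, 8.72 and 8.37, then 8.45, 8.33 and 8.32 at the 3 stages, and 7.98, 8.21, 8.15, 8.04 and 8.04 in wild type. It rose at progression by 0.53 ± 0.11 (0.00320), with 2 of the 3 progression arrays above all other spleens. Pcna read 13.32, 13.38 and 13.02, then 13.66, 13.60 and 13.30, then 13.22, 13.04 and 13.02, against 13.20, 13.28, 13.22, 13.19 and 13.08 in wild type. Its progression arrays lay above wild type, but its differences of 0.04 ± 0.11, 0.32 ± 0.11 and -0.10 ± 0.11 did not pass (adjusted p 0.845, 0.0627 and 0.536).

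The genes of single-strand binding and of Okazaki fragment joining passed at no stage. Rpa2 differed by 0.40 ± 0.17, 0.43 ± 0.17 and 0.30 ± 0.17, and the ligase Lig1 by 0.52 ± 0.19, 0.43 ± 0.19 and 0.09 ± 0.19. Chaf1b rose at the terminal stage by 0.60 ± 0.17 (0.0120) and differed by 0.44 ± 0.17 (0.0940) and 0.49 ± 0.17 (0.0569) before it.

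Of the 5 genes of nucleotide supply, 0, 2 and 1 rose at the 3 stages and 1 fell at the terminal stage, so at the last stage the count in each direction was near the all-gene shares of 18.1% and 16.3%. The gene that fell was Rrm2 and the one that rose there was Dut, while Tyms (-0.08), Rrm1 (0.24) and Tk1 (-0.06) did not pass. Rrm2 read 12.88, 12.99 and 12.23 at the early stage, 12.52, 12.54 and 12.86 at progression, 11.9995, 11.99 and 12.06 at the terminal stage, and 12.55, 12.66, 12.62, 12.74 and 12.45 in wild type. The 3 terminal arrays were the lowest of all 14 spleens. Rrm2 fell there by 0.59 ± 0.15 on the log2 scale (1.5-fold lower, adjusted p 0.00830), and its 3 probe sets gave -0.49, -0.59 and -0.55. At the early stage and progression it differed by 0.10 ± 0.15 and 0.03 ± 0.15.

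Dut, which clears dUTP, read 11.63, 11.57 and 11.72 at the terminal stage, above all other spleens, with 11.51, 11.39 and 11.32 at the early stage, 11.45, 11.37 and 11.51 at progression, and 10.99, 11.33, 11.14, 11.15 and 11.17 in wild type. It rose by 0.48 ± 0.10 (0.00156) at the terminal stage. Tk1, thymidine kinase, rose at progression by 0.42 ± 0.13 (0.0307). Tyms, thymidylate synthase, is given in full although it was chosen after its values were seen. It read 5.83, 5.67 and 5.42 at the early stage, 6.23, 5.85 and 5.84 at progression, 5.34, 5.03 and 4.65 at the terminal stage, and 4.48, 5.25, 5.31, 5.26 and 5.11 in wild type. It rose at progression by 0.89 ± 0.20 (0.00675), but this probe set is dim, near the lower quartile of the spleen arrays (4.56 to 4.81). A brighter probe set shared with the pseudogene Tyms-ps, outside the list, differed by 0.26, 0.36 and 0.29 at the 3 stages.

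**Figure D5:**
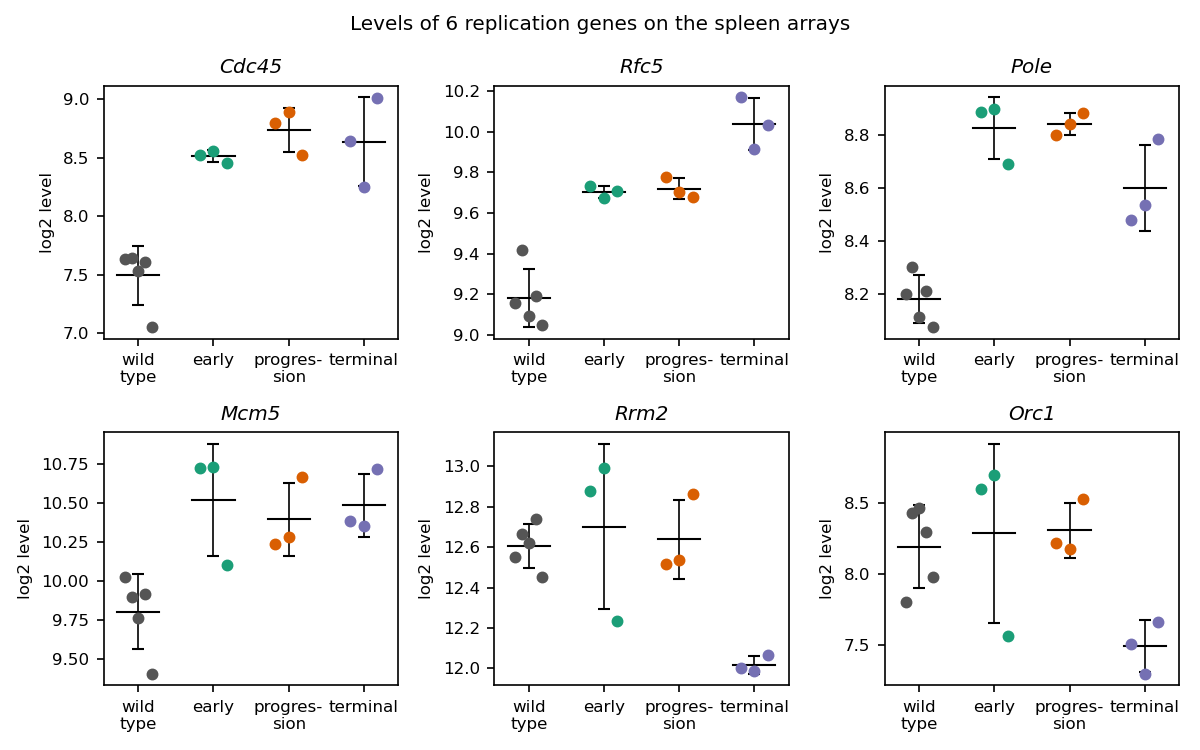
Log2 levels of 6 replication genes on each spleen array (points), with the group mean (bar) and SD (error bar). Cdc45, Rfc5, Pole and Mcm5 lie above the wild types on all 9 fusion arrays, while Rrm2 (11.99 to 12.06) and Orc1 (7.30 to 7.66) lie below them on the 3 terminal arrays.

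Early array 3 stood apart from early arrays 1 and 2 for many members, as the levels of Rrm2, Mcm2 and Mcm10 show. The early calls of Mcm5, Mcm10 and Gins1 were lost without early array 1 (adjusted p 0.0774, 0.0730 and 0.115) or early array 2 (0.0682, 0.0880 and 0.0607), that of Gins1 also without wild type 5 (0.0521), and that of Pole2 without any of the early arrays or wild type 5 (0.0573 to 0.0867). Without early array 3, 13 members were called, where 13.9% of all genes were. Without the 3 spleen arrays with pancreas signal, an alternative chosen after seeing the data, 2 of the 7 early calls stood. They were Cdc45 (0.88, adjusted p 0.0344) and Pole (0.56, 0.0492), where 5.19% of all genes were called. The early median was then 0.13.

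At progression, calls were lost on leaving out single arrays for Mcm5 (progression 2 or 3, wild type 3 or 5), Mcm6 (any array of the 8 except wild type 2), Mcm10 (progression 1), Prim1 (progression 1 or 2) and Tk1 (progression 1 or 2, wild type 3, 4 or 5), with adjusted p up to 0.0942, 0.0914, 0.0579, 0.0925 and 0.164. Without the pancreas arrays 6 of the 13 calls stood: Cdc45, Pole, Pole2, Rfc3, Rfc5 and Tyms. There 8.85% of all genes were called. At the terminal stage, the calls of Chaf1b, Mcm5 and Mcm6 were lost without terminal 3 (0.0806, 0.0509 and 0.0888) and that of Pold1 without terminal 2 (0.0756). The call of Orc1 was lost without terminal 1 or 2 or wild type 2, 3 or 4 (up to 0.121), that of Pold2 without terminal 1 or 3 or wild type 3, 4 or 5 (up to 0.125), and that of Pole2 without any terminal array or wild type 1, 4 or 5 (up to 0.116). Without the pancreas arrays 5 terminal calls stood, Cdc45, Rfc5, Dut and Gins1 higher and Rrm2 lower. There 23.6% of all genes were called in either direction, so 5 of 38 members is below that share.

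Between stages few members changed. Progression against early gave 0 of 38 calls (0% of all genes), and at an unadjusted p under 0.05 Rfc3 (0.39 ± 0.12) and Pcna (0.28 ± 0.13) passed, with 7.34% of all genes. Without progression 3, Rfc3 alone passed the adjusted test (0.51, adjusted p 0.0257), where 3.08% of all genes did. Terminal against early gave 1 member lower, Rrm2 (-0.69 ± 0.17, adjusted p 0.0309), and 0 higher, where 3.88% and 2.73% of all genes were. Terminal against progression gave 2 lower, Tyms (-0.97 ± 0.22, 0.0240) and Rrm2 (-0.62 ± 0.17, 0.0493), and 0 higher, where 3.3% and 2.56% of all genes were. All 3 terminal arrays lay below the early and the progression arrays for Rrm2. Its call against early was lost on leaving out any array except early 3 (adjusted p up to 0.162). Without early 3, 10 members were lower, where 17.4% of all genes were called in either direction. Its call against progression was lost on leaving out any of the 6 arrays (up to 0.121), and that of Tyms without progression 1, terminal 2 or terminal 3 (up to 0.0953). Without progression 3, 5 members were lower than in progression spleen. The share of all genes called in either direction was also higher there than in the main fit. The rise to 5 is therefore not read as specific to the members. With the Xist level as a covariate, 0 of 38 members passed in terminal against early or against progression, where 3.55% and 1.61% of all genes did. Xist separates the terminal from the progression arrays. Early 1 (12.6) was as high as the terminal arrays, while early 2 and 3 were low (5.73 and 4.97).

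Whether the fusion effect differed between tissues was tested as the spleen difference minus the marrow difference over all 29 arrays. It was higher in spleen for 7 of 38 members and lower for 0, where 5.42% and 8.54% of all genes were, with a median of 0.48 against 0.03 and 37 of 38 members above 0 (53.5% of all genes). For Cdc45 the pooled difference was 1.14 ± 0.13 in spleen and -0.17 ± 0.20 in marrow, and the contrast was 1.31 ± 0.24 (adjusted p 0.000523). Rfc5 gave 0.64 ± 0.08 and -0.23 ± 0.17 (contrast 0.87 ± 0.19, 0.00278), and Mcm10 gave 0.51 ± 0.12 and -0.36 ± 0.17 (0.86 ± 0.21, 0.00698). The other 4 were Chaf1b (0.95 ± 0.25, 0.0120), Mcm5 (1.00 ± 0.30, 0.0249), Gins1 (1.03 ± 0.33, 0.0347) and Pole (0.67 ± 0.21, 0.0358). All 3 helicase activators were among the 7.

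These contrasts take in the marrow wild types that stood high. Without wild-type marrow 3 or 4, or without wild-type spleen 5, 4 of 38 members were called. There 11.4%, 11.7% and 11.2% of all genes were called in either direction, and this count is near those shares. The 4 members were all higher in spleen, and the share of all genes called higher alone is not given here. Without wild-type marrow 1, 11 members were called, where 13.0% of all genes were. Mcm5, Gins1 and Pole lost their calls without wild-type marrow 4 (adjusted p 0.0652, 0.130 and 0.117). Gins1 also lost it without early spleen 1, wild-type marrow 3 or wild-type spleen 3, 4 or 5, Pole without terminal spleen 3, wild-type marrow 3 or wild-type spleen 3, 4 or 5, and Mcm5 without wild-type marrow 3 or wild-type spleen 5. Without the pancreas arrays the calls of Cdc45 (1.17, 0.00878) and Rfc5 (0.79, 0.0321) stood, where 7.41% of all genes were called.

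Related gene lists give the setting. Of 29 other fork and origin genes measured, 6, 7 and 7 rose and 3, 3 and 5 fell in spleen at the early, progression and terminal stages. That is 20.7%, 24.1% and 24.1% higher, against 7.35%, 9.29% and 18.1% of all genes, and 10.3%, 10.3% and 17.2% lower, against 8.55%, 9.96% and 16.3%, so the lower shares were close to those of all genes. The nuclease and helicase Dna2 rose by 0.81 ± 0.13, 1.2 ± 0.13 and 1.01 ± 0.13, and Timeless, of the fork protection complex, by 0.60 ± 0.14, 0.54 ± 0.14 and 0.62 ± 0.14. The small polymerase delta subunit Pold4 differed by -1.09 ± 0.15, -0.89 ± 0.15 and -0.89 ± 0.15, all past the test, and the mitochondrial thymidine kinase Tk2 by -0.82 ± 0.21, -1.11 ± 0.21 and -0.87 ± 0.21, past it too.

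Of 23 genes of E2F and the G1 to S transition, 7 rose at each stage (30.4%) and 3, 5 and 5 fell (13%, 21.7% and 21.7%), against the same all-gene shares. Cdc25a, a phosphatase that activates cyclin-dependent kinases, rose by 1.01 ± 0.13, 1.15 ± 0.13 and 1.57 ± 0.13. E2f5, a repressive E2F, fell at all 3 stages, with differences of -1.15 ± 0.19, -1.19 ± 0.19 and -1.0 ± 0.19. E2f1 rose at the early stage (0.82 ± 0.23, adjusted p 0.0292) and differed by 0.49 ± 0.23 and 0.42 ± 0.23 later. Ccne1, cyclin E1, passed at no stage (0.21, 0.02 and -0.07, each ± 0.27). The inhibitor Cdkn1a differed by 0.50 ± 0.28 at the early stage and rose by 1.03 ± 0.28 (0.0184) and 1.34 ± 0.28 (0.00181).

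Of 15 mitosis genes, 7, 9 and 6 rose (46.7%, 60% and 40%), against 7.35%, 9.29% and 18.1% of all genes. At the same stages 0, 0 and 3 fell (20% at the terminal stage, where 16.3% of all genes did). Bub1b, a spindle checkpoint kinase, rose by 0.86 ± 0.16, 0.94 ± 0.16 and 1.01 ± 0.16. Mki67, a marker of cycling cells, differed by 0.30 ± 0.14 and 0.27 ± 0.14 and then fell by 0.45 ± 0.14 on the log2 scale at the terminal stage (0.0184), where Nusap1 and Birc5 fell as well. In marrow 0 of the 29, 23 and 15 genes passed in any state. There the mitosis medians were -0.38, -0.31 and -0.34, E2f1 differed by -0.46 ± 0.17, -0.25 ± 0.17 and -0.44 ± 0.18, and Ccne1 by -0.53 ± 0.37, -0.73 ± 0.37 and -0.45 ± 0.40. Mki67 in marrow differed by -0.09 ± 0.21, -0.22 ± 0.21 and -0.22 ± 0.23, and Cdkn1a by 0.31 ± 0.20, 0.50 ± 0.20 and 0.32 ± 0.22.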

How the data were processed

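RNA of 29 mouse samples, 15 of marrow and 14 of spleen, was measured on arrays of 22690 probe sets. Per the submitters' processing notes, RMA, affy and limma were used; their versions and a genome build are not given in the sources used here. The deposited values are log2 intensities per probe set, as the authors normalized them, with no further scaling here. The platform annotation gave 20393 probe sets 1 symbol and 691 several, and 1606 were not listed; those with 1 symbol were used, and the probe set with the highest mean in a tissue stood for its gene. Groups came from the labels, which call the samples biological replicates. Differences were tested per tissue in 1 limma fit over its 4 groups (limma 3.58.1, R 4.3.3), with eBayes and Benjamini-Hochberg adjustment over 12394 genes, and for the difference between tissues in 1 fit over all arrays. The fit was tested on simulated data. The number of arrays limits the precision. Genes whose values are given on every array were those with the smallest p in each comparison with wild type, plus Mcm2, Mcm5, Pcna and Rrm2; full statistics were given for members past 0.05, up to 12 a comparison, or the 4 with the smallest p. That rule was exceeded at progression (13 members) and the terminal stage (15), and Tyms was added after its values were seen. Other lists gave up to 4 genes past 0.05 and Mki67, E2f1, Ccne1 and Cdkn1a. The members and lists were chosen with earlier results of these data known.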

Additional observations from a re-analysis of the deposited data

Results flagged for a closer look

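Of 41 groups of 4 or 5 arrays looked at over the members given array by array, 4 held 1 array far from its group, where chance gives about 1 in 20. In transition marrow, array 4 read 9.53 for Chaf1b, with the nearest array at 10.17, and 10.2 for Gins1, with the nearest at 10.92. Erythroid genes were low on the same array, at a mean of 10.5. In wild-type spleen, array 5 read 7.05 for Cdc45 (nearest 7.53) and array 1, from the mouse with 24 months on tamoxifen, read 4.48 for Tyms (nearest 5.11).

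The fusion effect differed between tissues for 7 of 38 members, each more positive in spleen, as did 5.42% of all genes in that direction. The contrasts were 1.31 for Cdc45, 0.87 for Rfc5, 0.86 for Mcm10, 0.95 for Chaf1b, 1.00 for Mcm5, 1.03 for Gins1 and 0.67 for Pole. Over 29 fits that each left out 1 array, the calls of Gins1 and Pole were each lost in 6 and that of Mcm5 in 3. Between spleen stages, Rrm2 was lower in terminal than in early spleen (-0.69) and than in progression spleen (-0.62), and Tyms was lower in terminal than in progression spleen (-0.97). Leaving out 1 array ended these calls in 5 of 6, 6 of 6 and 3 of 6 fits.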

How the results depend on the processing

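Of 1472 recomputed values of called members, 1214 kept their call, 258 kept their direction without it, and 0 reversed. Cdc45 kept its call in all 20 alternatives at each spleen stage and all 39 of the contrast between tissues. Counts of called members moved as follows, with the shares of all genes called in either direction given beside most of them. With 1 fit over all arrays the count was 4 early, 5 at progression, 4 terminal and 8 in all fusion spleen. The shares of all genes in either direction were 14.2%, 17.9%, 29.8% and 28.4%, and with 38 members each of these counts lay below its share. These calls were all higher, and the shares of all genes called higher alone are not given here. The count was 0 for terminal against early and against progression (4.06% and 4.34%). With array weights it was 29 early, 29 for the contrast between tissues, 1 for progression against early, 15 for terminal against early, 5 in all fusion marrow and 1 in proliferation marrow. In each of these comparisons the weights also raised the share of all genes called in either direction. The rise in these counts is therefore not read as specific to the members. Without the 3 pancreas-signal arrays, chosen after seeing the data, the count was 2, 6, 5 and 5 for early, progression, terminal and all fusion spleen. There 5.19%, 8.85%, 23.6% and 17.1% of all genes were called. The count was 2 for the contrast (7.41%) and 0 for terminal against early (2.02%). Quantile normalization gave 14 for the contrast (15.9%) and 1 for terminal against progression (6.05%). Centring on medians gave 20 at progression (20.2%), and the mean of all probe sets 1 for terminal against progression (6.58%). Terminal against early was 0 with the Gapdh covariate (3.38%), with only its groups (2.03%) and with Xist (3.55%). Terminal against progression was 0 with only its groups (2.16%) and with Xist (1.61%). Leaving out 1 array gave 3 to 13 early, 4 to 11 for the contrast, 0 to 1 for progression against early, 0 to 10 for terminal against early and 0 to 5 for terminal against progression. The all-gene shares at the highest of these counts are given in the Results, except for terminal against progression. There, and for terminal against early, the share of all genes called was also higher than in the main fit. The cause of these moves was not tested. In senescence against proliferation marrow, 2 uncalled values changed sign: Prim2 with Xist (0.11) and Tyms without senescence 1 (0.081; -0.71 to 0.081 over arrays left out). Scaling moved the all-gene median by at most 0.06.

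Same-numbered arrays deviated together in 10 of 21 pairs of marrow arrays (correlation over 0.1, range -0.43 to 0.55) and 5 of 18 of spleen (-0.32 to 0.23), so the numbers were not taken as pairs. With the replicate block the count was 2 early, 6 at progression, 5 terminal and 7 in all fusion spleen. There 6.66%, 8.96%, 23.8% and 18.4% of all genes were called. The count was 0 for terminal against early and against progression (2.84% and 2.44%). Signal limits Tyms, whose probe sets are dim in spleen.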
